A study of Rattus norvegicus with 3 samples.

Results

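The genes described here encode endothelial growth factor receptors, their ligands and partners, and other proteins of blood vessel growth. They were taken by name from the table of all genes, as the rows whose symbol was FLT1, KDR, TEK, TIE1, VEGFA, ANGPT1, ANGPT2, RAMP2, CALCRL or EGFL7. Of these 10 genes, 8 had an entry among the 12771 entries of the table. TEK and TIE1 had none and were not analysed. Each of the 8 was listed once.

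RNA was sequenced from the supernatant of digested spinal cord of female Sprague Dawley rats, 3 months old. The No-SCI group had a laminectomy at T9 without contusion, and the SCI group had the same laminectomy followed by a spinal cord contusion. Tissue just rostral to the injury was taken 24 h later, treated with cold active protease, and spun to pellet cells. The labels list 2 libraries for No-SCI and 1 for SCI, whereas the methods give 2 animals per condition. The authors' deposited table holds 1 FPKM value per group for each gene (sequenced fragments corrected for the length of the transcript and the size of the library), so there is no spread between animals, no read depth behind a value and no test of any difference below. A gene was counted as different where the SCI and No-SCI values differed by at least 2-fold.

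Blood vessels grow when vascular endothelial growth factor, made largely by cells around the vessel, binds receptor tyrosine kinases on endothelial cells. KDR carries most of the growth signal, and FLT1 binds the same ligand tightly and limits how much of it reaches KDR. Angiopoietins act on the receptor TEK, with TIE1 as its partner, and set whether vessels stay quiescent or are remodelled. Adrenomedullin signals through CALCRL, a receptor that needs a RAMP protein to reach the cell surface and to gain its ligand preference. EGFL7 is secreted by endothelial cells and binds the vessel matrix. In the spinal cord these genes are known for building and maintaining the vessels of the blood-spinal cord barrier.

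The genes stood on both sides of the comparison. RAMP2, ANGPT2 and EGFL7 were at least 2-fold higher in SCI, CALCRL and VEGFA were at least 2-fold lower, and FLT1, KDR and ANGPT1 differed by less than 2-fold. Thus 3 of the 8 genes (37.5%) were past the cut upward, against 7.96% of all entries, and 2 of 8 (25%) downward, against 12.1% of all entries. In either direction it was 5 of 8 (62.5%), against 20.0% of all entries. Over the 8 genes the median log2 ratio, SCI over No-SCI, was 0.65, with 5 genes higher and 3 lower, and that of all entries was −0.12. The mean was 0.24, and the median was 0.02 with genes under a mean of 5 FPKM left out, so the upward median rested on genes of low level. With 8 genes and 1 value a group, these shares describe the table and carry no error.

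**Figure D1:**
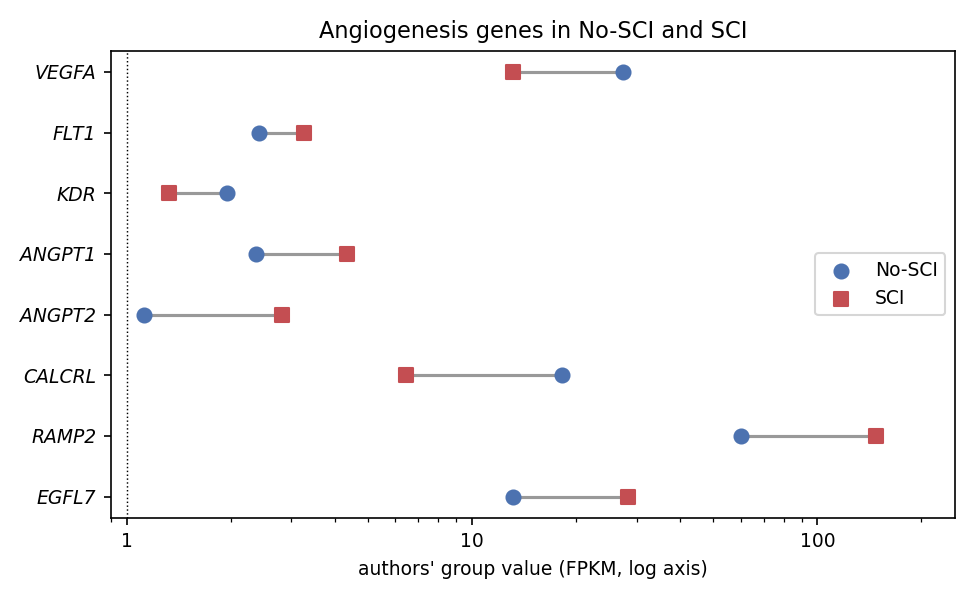
Authors' group values in FPKM on a log axis for the 8 genes with an entry, with a circle for No-SCI, a square for SCI and a grey line joining them. The dotted line marks 1, the lowest value in the table, and RAMP2, EGFL7, ANGPT1, ANGPT2 and FLT1 lie to the right in SCI while VEGFA, CALCRL and KDR lie to the left.

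Among the ligands, VEGFA, the growth factor itself, had 27.4 FPKM in No-SCI and 13.2 FPKM in SCI. Its log2 ratio of −1.06 was just past the 2-fold cut, at percentile 10.8 of the log2 ratios of all entries. After the median of all entries was centred at 0 the log2 ratio of VEGFA was −0.94, and with both groups scaled to the same upper quartile it was −0.95, both short of 2-fold. The direction was the same in all 6 alternative treatments of the values. VEGFA was above the median entry in No-SCI (percentile 61.1) and below it in SCI (percentile 45.9).

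ANGPT1, the angiopoietin that activates TEK, had 2.37 FPKM in No-SCI and 4.34 FPKM in SCI, a log2 ratio of 0.88. ANGPT2, which in most settings opposes ANGPT1 at TEK and is stored and released by endothelial cells, had 1.12 FPKM in No-SCI and 2.81 FPKM in SCI. Its log2 ratio was 1.33, at percentile 95.4 of all entries. The 2 ligands were thus both higher in SCI, and the ratio of ANGPT2 to ANGPT1 was 0.473 in No-SCI and 0.648 in SCI. Both lay among the least abundant genes of the table, with ANGPT2 at percentile 0.380 of all entries in No-SCI and 11.6 in SCI.

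FLT1 had 2.42 FPKM in No-SCI and 3.27 FPKM in SCI, a log2 ratio of 0.43, and KDR had 1.95 FPKM in No-SCI and 1.33 FPKM in SCI, a log2 ratio of −0.55. Neither receptor was past 2-fold, and they differed in sign. FLT1 was 1.24 times as abundant as KDR in No-SCI and 2.45 times in SCI. KDR stood at percentile 5.24 of all entries in No-SCI and 1.49 in SCI, and FLT1 at 8.28 and 14.25. The level of VEGFA was 11.3 times that of FLT1 in No-SCI and 4.04 times in SCI, and 14.1 and 9.91 times that of KDR.

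CALCRL, the adrenomedullin receptor, had 18.2 FPKM in No-SCI and 6.43 FPKM in SCI, a log2 ratio of −1.503. RAMP2, the partner that makes CALCRL an adrenomedullin receptor, had 60.2 FPKM in No-SCI and 148 FPKM in SCI, a log2 ratio of 1.297. The receptor and its partner were past the cut in opposite directions, at percentiles 3.94 and 95.1 of all log2 ratios. The ratio of RAMP2 to CALCRL was 3.30 in No-SCI and 23.0 in SCI. This shift was not particular to RAMP2, as the ratio to CALCRL was 6.12 and 23.6 for RAMP1, and 0.730 and 3.50 for RAMP3. RAMP2 was the most abundant of the 8 genes in both groups, and CALCRL went from the third to the fourth position. Both kept their direction and stayed past 2-fold in each of the 6 alternative treatments.

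EGFL7 had 13.1 FPKM in No-SCI and 28.2 FPKM in SCI, a log2 ratio of 1.11, at percentile 93.3 of all entries. It was the fourth most abundant of the 8 genes in No-SCI and the second in SCI, where it stood above VEGFA. EGFL7 is also known as the host gene of miR-126, the best known endothelial microRNA. In the RefSeq tables of the GRCr8 assembly 3 mature forms lie within the span of Egfl7 on chromosome 3, of which rno-miR-126b lies on the strand opposite to Egfl7, and they are shown here because the RNA measured for EGFL7 shares its locus with them; the mature microRNAs were not analysed. Capitals mark the seed, bases 2 to 8.
rno-miR-126a-3p: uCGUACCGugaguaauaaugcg
rno-miR-126a-5p: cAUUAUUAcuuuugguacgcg
rno-miR-126b: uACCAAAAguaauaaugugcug

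Ordered by level, the genes ran RAMP2, VEGFA, CALCRL, EGFL7, FLT1, ANGPT1, KDR and ANGPT2 in No-SCI, and RAMP2, EGFL7, VEGFA, CALCRL, ANGPT1, FLT1, ANGPT2 and KDR in SCI. FLT1 and ANGPT1 were neighbours in No-SCI with a ratio of 1.02, and ANGPT2 and FLT1 in SCI with a ratio of 1.16, and no spread is known that would separate them. RAMP2, VEGFA, CALCRL and EGFL7 were above 5 FPKM in both groups, and the other 4 genes, FLT1, KDR, ANGPT1 and ANGPT2, were under 5 FPKM in both. Except for ANGPT1, each of the 8 genes has at least 1 value with 7 significant digits. For KDR and ANGPT2 these lie between 1 and 2, where 87.7% of all values carry 6 or more decimals. Whether values with 7 digits are sums over several transcripts, which would change levels compared between genes, was not tested.

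**Figure D2:**
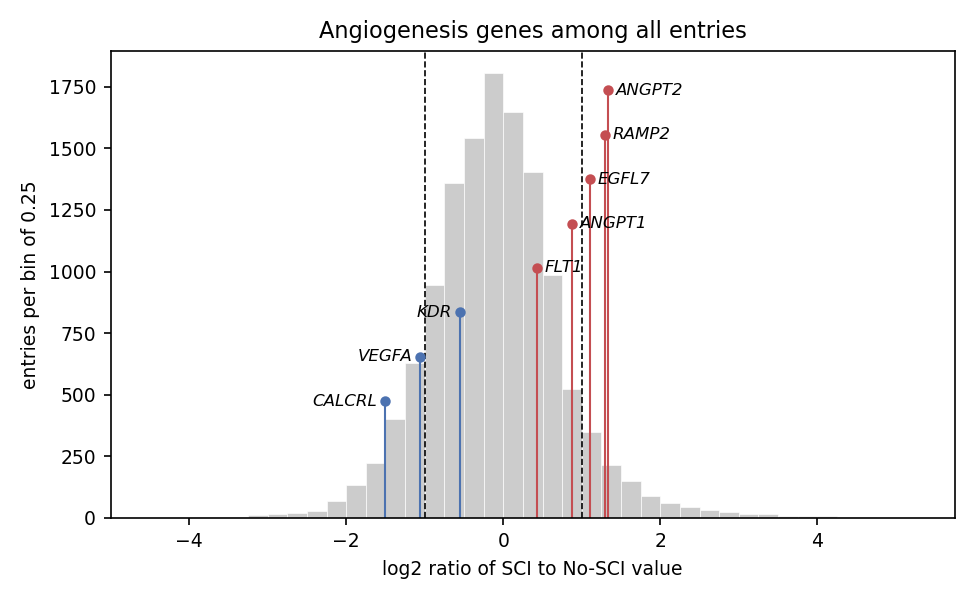
Histogram of log2 ratios, SCI over No-SCI, for all 12771 entries in bins of 0.25, with the 8 genes marked by lines at their own ratio (the heights of the lines only keep the names apart). Dashed lines mark 2-fold, and 3 genes lie beyond it on the right and 2 on the left.

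The low values matter for the angiopoietins and the VEGF receptors. They matter too for genes of the lists below with low No-SCI values, among them ESM1, ACKR3, ADM, ANGPTL1, KLF2, FOXC1 and FOXC2. The ratios of those genes are given only as deposited. No value in the table lies below 1, and of the values between 1 and 2, 87.7% carry 6 or more decimals, against 26.4% of those between 2 and 10. If 1 was added to every estimate, the ratios of genes near 1 are understated. With 1 subtracted from both values, the log2 ratio became 3.91 for ANGPT2, 1.29 for ANGPT1, −1.52 for KDR and 0.67 for FLT1, so that 7 of the 8 genes were past 2-fold, 4 upward and 3 downward. The corresponding shares of all entries under that subtraction were 10.4% upward and 16.2% downward. The ratios between genes moved as well. FLT1 became 1.499 times KDR in No-SCI and 6.84 times in SCI, and VEGFA became 18.6 and 5.38 times FLT1. VEGFA over KDR turned its direction, with 27.9 in No-SCI and 36.8 in SCI. ANGPT2 over ANGPT1 became 0.0883 in No-SCI and 0.543 in SCI. With 1 added instead, ANGPT2 had a log2 ratio of 0.85 and was no longer past the cut. RAMP2, CALCRL and EGFL7 moved by at most 0.16 in either treatment.

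**Figure D3:**
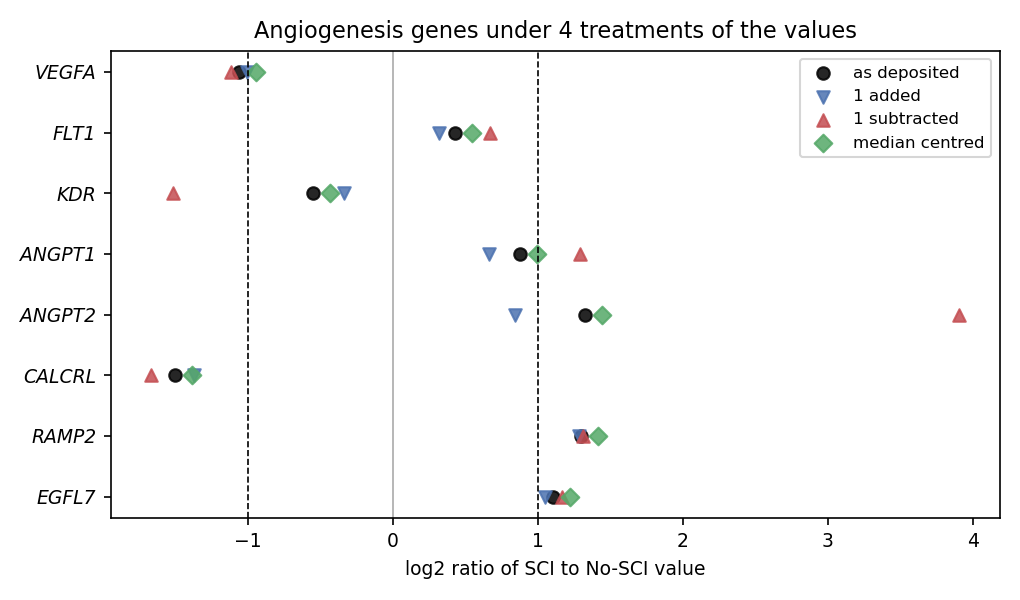
Log2 ratios, SCI over No-SCI, for the 8 genes with the values as deposited, with 1 added to both values, with 1 subtracted from both values, and with the median of all entries centred at 0, against dashed lines at 2-fold. ANGPT2 spans 0.85 to 3.91, whereas RAMP2 spans 1.28 to 1.41.

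Promoter sequences are shown for VEGFA, CALCRL and EGFL7, the genes past 2-fold with a window in the RefSeq promoter table used here, because they stood on opposite sides of the comparison. Each is the 250 bases before an annotated transcript start, in the GRCr8 assembly, written 5′ to 3′ on the gene's strand. Of the 10 genes, 6 have such windows in the RefSeq table, 8 windows in all. Capitals mark the core bound by ETS factors, GGAA on either strand (TTCC), a family with many members in endothelial cells.
VEGFA, upstream start, chr9:22452604-22452853, plus strand: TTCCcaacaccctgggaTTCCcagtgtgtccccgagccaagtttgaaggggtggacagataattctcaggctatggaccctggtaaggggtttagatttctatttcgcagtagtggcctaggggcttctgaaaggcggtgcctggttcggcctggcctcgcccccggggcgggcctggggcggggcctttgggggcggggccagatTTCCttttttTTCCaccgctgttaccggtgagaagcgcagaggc
VEGFA, downstream start, chr9:22460028-22460277, plus strand: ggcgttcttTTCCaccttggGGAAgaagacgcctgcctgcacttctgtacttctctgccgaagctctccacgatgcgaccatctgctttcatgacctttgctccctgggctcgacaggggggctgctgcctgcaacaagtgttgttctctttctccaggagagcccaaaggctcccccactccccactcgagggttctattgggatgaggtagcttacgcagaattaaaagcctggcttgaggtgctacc
CALCRL, chr3:89932617-89932866, minus strand: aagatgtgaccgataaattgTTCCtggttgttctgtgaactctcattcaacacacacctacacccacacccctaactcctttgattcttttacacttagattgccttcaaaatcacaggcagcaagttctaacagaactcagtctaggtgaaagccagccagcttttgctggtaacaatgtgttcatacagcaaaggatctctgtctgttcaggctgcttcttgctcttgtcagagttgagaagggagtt
EGFL7, upstream start, chr3:29805381-29805630, plus strand: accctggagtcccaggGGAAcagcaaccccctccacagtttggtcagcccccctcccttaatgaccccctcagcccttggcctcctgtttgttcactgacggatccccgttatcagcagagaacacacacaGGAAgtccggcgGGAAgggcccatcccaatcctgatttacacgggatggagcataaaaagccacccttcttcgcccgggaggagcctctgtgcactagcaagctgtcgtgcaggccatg
EGFL7, downstream start, chr3:29808051-29808300, plus strand: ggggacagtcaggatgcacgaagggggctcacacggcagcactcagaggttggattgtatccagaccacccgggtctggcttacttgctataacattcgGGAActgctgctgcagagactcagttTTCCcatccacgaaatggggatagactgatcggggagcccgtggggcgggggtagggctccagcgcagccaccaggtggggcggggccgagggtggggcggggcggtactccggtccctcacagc

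The CALCRL window was the poorest in G and C, with 43.6%, and held 1 ETS core. The upstream VEGFA window had 60.4% G and C, 4 ETS cores and 3 copies of the GC box GGGCGG on either strand. The downstream VEGFA window had 56% G and C, 2 ETS cores and 0 GC boxes. The EGFL7 windows held 3 and 2 ETS cores, and the downstream one had 4 GC boxes. The windows of FLT1 and KDR held 3 and 4 ETS cores and 3 and 1 GC boxes. Over all 33469 windows of the same length, 93.2% held an ETS core, with a median of 3 per window, and 30.5% held a GC box. The hypoxia response core ACGTG, searched on both strands (CACGT), was in 0 of the 8 windows and in 16.6% of all windows. These are matches of letters and not binding sites, and a window without a match says only that the letters are not within it.

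The pathways around these genes were described with gene lists, by how many listed genes were past 2-fold and by the median, which for 4 of the 17 lists changes sign when the median of all entries is centred at 0. The counts of every list stand against the 7.96% of all entries past 2-fold upward and the 12.1% downward. Of 10 VEGF ligands, receptors and co-receptors, 8 had an entry, 0 were past 2-fold upward and 1, VEGFA, downward. Its median log2 ratio was −0.10. VEGFB, which binds FLT1 but not KDR, had 31.5 FPKM in No-SCI and 32.5 FPKM in SCI, so it was 1.15 times as abundant as VEGFA in No-SCI and 2.47 times in SCI. PGF, the placental growth factor and another FLT1 ligand, had 2.85 and 4.80 FPKM. Of the co-receptors, NRP1 had 7.58 FPKM in No-SCI and 12.3 FPKM in SCI, a log2 ratio of 0.70, and NRP2 had 8.75 and 5.22 FPKM, a log2 ratio of −0.75. Of the 8 genes 4 were higher and 4 lower in SCI, and 7 differed by less than 2-fold.

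Of 10 genes of the angiopoietin and Tie axis, 6 had an entry, 3 were past 2-fold upward and 0 downward, and the median log2 ratio was 1.10, against 7.96% and 12.1% of all entries in those directions. Beside ANGPT2 these were ANGPTL4, a lipase inhibitor that is also induced by low oxygen and by fatty acids, with 7.70 FPKM in No-SCI and 21.6 FPKM in SCI, and ANGPTL1, an angiopoietin-like secreted protein, with 1.35 and 3.77 FPKM. ANGPT4, a further TEK ligand, had 5.62 and 9.16 FPKM. The receptors TEK and TIE1 and the phosphatase PTPRB, which restrains TEK, had no entry, so the list describes angiopoietins and angiopoietin-like proteins. Of the angiopoietins themselves only ANGPT2 was past 2-fold, with log2 ratios of 0.88 for ANGPT1 and 0.70 for ANGPT4.

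Of 11 genes of the adrenomedullin and calcitonin receptor family, 10 had an entry, 4 were past 2-fold upward and 1, CALCRL, downward, with a median log2 ratio of 0.78. ADM, the ligand adrenomedullin, had 2.15 FPKM in No-SCI and 5.52 FPKM in SCI, a log2 ratio of 1.36. The scavenging receptor ACKR3, which takes up adrenomedullin and the chemokine CXCL12, had 1.91 and 8.66 FPKM, a log2 ratio of 2.18. GPR182, an endothelial receptor that binds chemokines, had 2.88 and 9.01 FPKM, a log2 ratio of 1.65. The other CALCRL partners were also higher in SCI but within 2-fold, with 112 and 152 FPKM for RAMP1, which forms the receptor of calcitonin gene-related peptide, and 13.3 and 22.5 FPKM for RAMP3. RAMP2 was at 0.540 of the level of RAMP1 in No-SCI and at 0.976 in SCI. CALCRL was the one gene of the list past 2-fold downward.

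EGFL7 was set beside endothelial Notch genes, with which its protein is known to interfere. Of 12 genes in that list 7 had an entry, 3 were past 2-fold upward and 0 downward, and the median log2 ratio was 0.59. One of the 3 was EGFL7 itself, which leaves 2 of the 6 Notch genes. NOTCH4, an endothelial Notch receptor, had 4.04 FPKM in No-SCI and 8.89 FPKM in SCI, and the Notch target HES1 had 3.53 and 13.7 FPKM. The targets HEY2 and HEYL went the other way within 2-fold, with 17.4 and 9.57 FPKM and with 7.89 and 4.001 FPKM.

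Among 18 listed relays of VEGF receptor signalling, 0 were past 2-fold upward and 1 downward, PRKCA with 29.0 FPKM in No-SCI and 13.7 FPKM in SCI. The median log2 ratio was −0.04. NOS3, the endothelial nitric oxide synthase, had 2.13 and 2.91 FPKM. The most abundant gene was HSPB1, a small heat shock protein phosphorylated downstream of KDR and present in many cell types, with 1914 and 3305 FPKM.

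Of 23 other angiogenic receptors and guidance genes, 14 had an entry, 3 were past 2-fold upward and 1 downward, with a median log2 ratio of 0.11. ESM1, a secreted proteoglycan of endothelial tip cells, had 1.91 FPKM in No-SCI and 36.1 FPKM in SCI, a log2 ratio of 4.24 at percentile 99.9 of all entries. ENG, a co-receptor of bone morphogenetic proteins on endothelium, had 5.12 and 10.5 FPKM, and CXCL12 had 2.71 and 8.66 FPKM. S1PR1, the sphingosine phosphate receptor that stabilizes vessels and is also present on astrocytes, had 17.7 and 7.19 FPKM, a log2 ratio of −1.303. Of 12 angiogenesis inhibitors, 10 had an entry, 2 were past 2-fold upward (SERPINF1 with 2.13 and 23.0 FPKM, TIMP3 with 15.9 and 34.7 FPKM) and 1 downward (VASH1 with 11.8 and 5.58 FPKM), and the median log2 ratio was −0.20.

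VEGFA is a classical target of the hypoxia-inducible factors. Of 20 hypoxia response genes 19 had an entry, 3 were past 2-fold upward and 3 downward, with a median log2 ratio of −0.09. HIF1A, a subunit of the factor, had 201 FPKM in No-SCI and 84.2 FPKM in SCI, a log2 ratio of −1.25. EPAS1, its endothelial relative, which is not in this list, had 501 and 166 FPKM, a log2 ratio of −1.60. These are RNA levels, and the protein or activity of these factors was not measured. The targets EGLN3 and DDIT4 were lower in SCI, with log2 ratios of −1.47 and −1.22. LDHA, ANKRD37 and ADM were higher, with log2 ratios of 1.05, 1.52 and 1.36. The list was therefore divided, as VEGFA and ADM were between themselves.

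**Figure D4:**
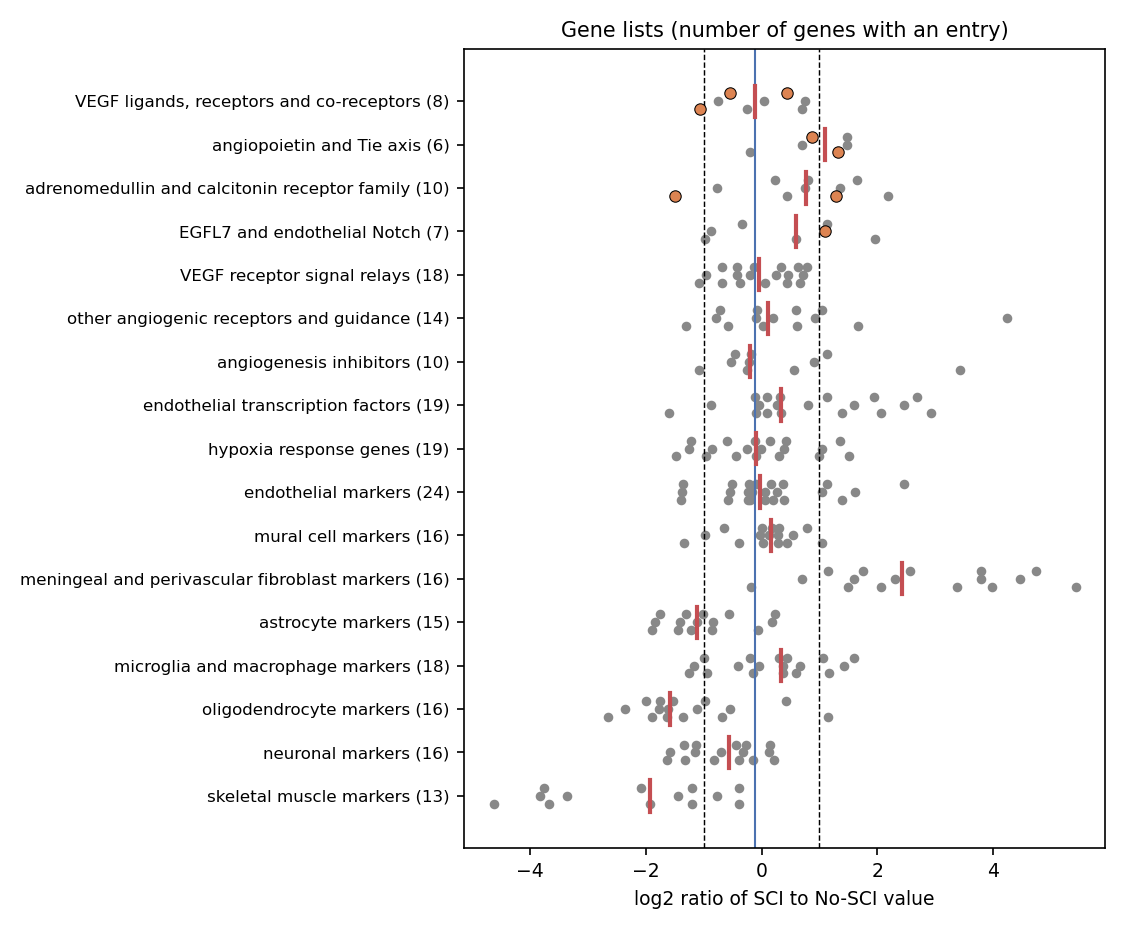
Log2 ratios, SCI over No-SCI, for each gene with an entry in 17 gene lists, with the number of genes in brackets, a red bar at the list median, a blue line at the median of all entries and dashed lines at 2-fold. Orange points are VEGFA, FLT1, KDR, ANGPT1, ANGPT2, CALCRL, RAMP2 and EGFL7, a gene in several lists is drawn in each, and meningeal and perivascular fibroblast markers lie furthest to the right with a median of 2.44. The lists were chosen with earlier results of these data known.

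In RNA from a cell-free supernatant of mixed tissue, fewer cells of a type, less RNA per cell and less RNA of that cell in the supernatant cannot be told apart, so the marker genes of vessel cells and of other cells are given beside these results, again against 7.96% of all entries upward and 12.1% downward. Of 30 endothelial markers 24 had an entry, 5 were past 2-fold upward and 3 downward, and their median log2 ratio was −0.02. Their summed level was 160 FPKM in No-SCI and 198 FPKM in SCI. The defining markers PECAM1 and CD34 had no entry. CLDN5, the tight junction protein of barrier vessels, had 16.2 and 13.7 FPKM, VWF 1.67 and 1.44 FPKM, and CDH5, the endothelial cadherin, 3.85 and 11.7 FPKM. Over 24 of these markers and both group values, the genes nearest to FLT1 were CA4, PLVAP and EMCN, at log2 distances of 0.30, 0.49 and 0.57, and those nearest to KDR were VWF, CD93 and CLEC14A, at 0.25, 0.33 and 0.50. Only 2 values enter this measure, and each of the genes named lies under 5 FPKM in both groups.

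Of 18 mural cell markers 16 had an entry, 1 was past 2-fold in each direction, and their summed level was 709 FPKM in No-SCI and 900 FPKM in SCI. Most of that sum came from TAGLN (383 and 517 FPKM), MYL9 (174 and 190 FPKM) and TPM2 (42.0 and 86.5 FPKM). The marker past 2-fold downward was ABCC9 (7.07 and 2.78 FPKM). MYH11 (13.7 and 6.93 FPKM) and RGS5 (14.0 and 8.95 FPKM) were lower within 2-fold. By any size 11 markers were higher and 5 lower, and the median level was 9.60 FPKM in No-SCI and 7.64 FPKM in SCI. Of 16 listed meningeal and perivascular fibroblast markers 14 were past 2-fold upward and 0 downward. Their summed level was 152 FPKM in No-SCI and 1944 FPKM in SCI. The lists were chosen with earlier results of these data known, so these values may be set in part by that choice. Of 13 listed skeletal muscle markers 10 were past 2-fold downward, with summed levels of 459 and 63.0 FPKM. Of 15 listed astrocyte markers 9 were past 2-fold downward and 0 upward, with a median log2 ratio of −1.12, and GFAP, AQP4 and SLC1A3 had no entry. Their summed levels were 26564 and 21868 FPKM, mostly from APOE (10448 and 11804 FPKM), NDRG2 (8001 and 3228 FPKM) and GLUL (5858 and 5624 FPKM). The 18 listed microglia and macrophage markers were divided, with 4 past 2-fold upward and 3 downward, and summed levels of 1485 and 2081 FPKM. Those upward were LYZ2 (201 and 611 FPKM), CD68, C1QC and CD163, and those downward were CX3CR1, CSF1R and P2RY12. Of 16 listed oligodendrocyte markers 11 were past 2-fold downward and 1 upward, with a median log2 ratio of −1.58 and no entry for MBP. Their summed levels were 93953 and 56630 FPKM, mostly from MOBP (44200 and 27648 FPKM) and BCAS1 (36068.5 and 18311 FPKM). Of 16 listed neuronal markers 6 were past 2-fold downward and 0 upward, with a median log2 ratio of −0.57. Their summed levels were 4600 and 3005 FPKM, mostly from MAP2 (2140 and 860 FPKM) and GAP43 (1275 and 1406 FPKM). Several of the genes described above are expressed in such cells too: VEGFA and EPAS1 are known in astrocytes, and ACKR3, CXCL12 and SERPINF1 in fibroblasts. The part of these cell types in the values of VEGFA, CALCRL, RAMP2, EGFL7 and the angiopoietins was not tested.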

How the data were processed

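RNA from the supernatant of digested rat spinal cord was measured in libraries that the labels assign to No-SCI (2) and SCI (1). The authors depleted ribosomal RNA, made stranded total RNA libraries, downsampled each library to the smallest one, aligned reads to rn6 with STAR 2.5.4b, and estimated group values with Cuffdiff 1.3.0 (versions per the labels) after upper quartile normalization. Values in FPKM were deposited as estimates of the authors for each group, 1 for No-SCI and 1 for SCI per entry, with no counts, so depth, intervals and replicate tests were not possible. The deposited p-values, q-values, significance calls and fold changes are the authors' comparison of SCI with No-SCI and were not used. In all, 0 measurement columns were left without a group.

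No pseudocount entered the log2 ratios (SCI over No-SCI), which were computed over all entries, with percentiles, medians and counts past 2-fold. Of the symbols, 13 are listed more than once, and of these the one with the larger mean was kept. The genes and the 17 gene lists (287 symbols, 236 with an entry, CA4 matched by a synonym) were chosen with earlier results of these data known. From each list the 3 most abundant genes and up to 5 past 2-fold could be named. PGF, NRP2, HEYL, NOS3, VWF, PTPRB, SLC2A1, MFSD2A, CD163, P2RY12, MYH11, RGS5 and the markers without an entry fall outside that rule or were chosen after their values were seen. Promoter and microRNA sequences are from RefSeq (GRCr8), which is not the assembly of the values. The computation of ratios and counts was run on values made from the No-SCI values without noise, which checks the arithmetic only. Python 3.11.15, numpy 2.4.6, pandas 2.3.3 and matplotlib 3.10.9 were used.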

Additional observations from a re-analysis of the deposited data

How the results depend on the processing

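Each of the 8 genes was recomputed under 6 treatments of the values (pseudocounts of 1 and 0.1, median centring, the same upper quartile, the same total, and 1 subtracted), and 0 of the 48 ratios changed sign. Of these, 43 stayed on the same side of 2-fold, 3 dropped under it and 2 passed it. Median centring moved every log2 ratio up by 0.12 and upper quartile scaling by 0.10, and under both the count of genes past 2-fold downward was 1 in place of 2, because VEGFA dropped under the cut. The shares of all entries past it were then 9.55% upward and 9.59% downward with median centring, and 9.35% and 9.91% with the same upper quartile. With a fold of 1.5 the counts were 4 upward, 2 downward and 6 in all, and with a fold of 3 they were 0 upward, 0 downward and 0 in all. The shares of all entries past these 2 folds were not computed, so the counts cannot be set against them. The median log2 ratio over the genes ran from 0.02, with genes under a mean of 5 FPKM left out, to 0.92, with 1 subtracted. The entry with the smaller mean was not run, because each of the genes has 1 entry. No paired analysis was possible because the table holds 1 value per group, and for the same reason no library could be left out.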

Other observations

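The transcription factors of endothelial cells were described apart from the signalling genes. Of 20 such genes 19 had an entry, 8 were past 2-fold upward and 1 downward, with a median log2 ratio of 0.34, against 7.96% and 12.1% of all entries in those directions. By any size 14 were higher and 5 lower, but the summed level was 764 FPKM in No-SCI and 544 FPKM in SCI. The gene past 2-fold downward was EPAS1, the most abundant of the list, with 501 and 166 FPKM. MEF2C, also among the most abundant, had 112 and 61.3 FPKM. SOX18, a factor of endothelial differentiation, had 2.79 FPKM in No-SCI and 15.5 FPKM in SCI, and SOX17, a relative that marks arterial endothelium, had 3.64 and 9.55 FPKM. ERG, an ETS factor of quiescent endothelium, had 20.8 and 45.5 FPKM, and LMO2, a partner of TAL1, had 27.9 and 117 FPKM. KLF2, the factor induced by blood flow, had 1.20 and 4.66 FPKM. FOXC1 and FOXC2, which are also expressed in meninges, had log2 ratios of 2.93 and 2.69. The summed level of the meningeal and perivascular fibroblast markers was 12.8 times as high in SCI as in No-SCI, and its part in these values was not tested. That list was chosen with earlier results of these data known.

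The endothelial markers past 2-fold fell into 2 kinds. The genes higher in SCI were CDH5, ENG, ERG, SOX17 and SOX18, with log2 ratios from 1.04 for ENG to 2.47 for SOX18. The genes lower in SCI were the membrane transporters SLC16A1, SLCO1A4 and SLCO1C1, with log2 ratios of −1.36, −1.37 and −1.40. SLC16A1 carries lactate and is also expressed in oligodendrocytes, and SLCO1C1, a thyroid hormone transporter, is also expressed in astrocytes. SLC2A1 and MFSD2A, transporters of glucose and of lipids at the barrier, had log2 ratios of 0.39 and −0.23. These groups were formed after the values were seen, and they carry no test.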
